A study of Rattus norvegicus with 105 samples.

Results

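The genes described here are used as markers of foreign body giant cells and of the closely related osteoclasts. Giant cells are the multinucleated cells that macrophages form at an implant. In RNA of whole muscle, levels of these genes cannot tell giant cells from single macrophages. The list was made with earlier results of these data known. It held 8 symbols, named for this role and not by a threshold on measured values: Acp5, Dcstamp, Ocstamp, Atp6v0d2, Gpnmb, Spp1, Trem2 and Itgb3. Of these, 6 had an annotated probe set on the array, 1 each, among 14852 annotated symbols, and Dcstamp and Ocstamp were not analysed here. When the 6 genes were each compared with the tantalum control in 31 metal-by-month settings, 2 comparisons passed the test, and both were of Acp5 at 3 months, in muscle with cobalt and in muscle with nickel.

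RNA came from the gastrocnemius muscle of male Sprague-Dawley rats, bought at about 30 days of age and acclimated for at least 2 weeks. Each animal carried 4 pellets of a single metal, 2 per limb, as cylinders 1 mm across and 2 mm long. The metals were aluminum (Al), cobalt (Co), copper (Cu), depleted uranium (DU), iron (Fe), nickel (Ni), lead (Pb) and tungsten (W), and tantalum (Ta) pellets served as the surgical sham, so every group, the controls included, held a foreign body. Muscle was taken 1, 3, 6 or 12 months after implantation, with 8 rats assigned to each metal and month. Each group had 3 Clariom S Rat arrays, and each array was given 250 ng of RNA pooled from 2 to 3 animals, in 35 groups. The muscle of 12 months with nickel was not analysed here. The p-values below measure the spread between such pools.

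Macrophages that cannot engulf a large object can fuse into giant cells, and the same precursors form osteoclasts on bone. In mice, fusion needs surface proteins of the DC-STAMP and OC-STAMP kind and the d2 subunit of the vacuolar proton pump, encoded by Atp6v0d2, while TREM2 is a lipid-sensing receptor that signals through the adaptor encoded by Tyrobp. Acp5 encodes tartrate-resistant acid phosphatase, the classic histochemical stain of osteoclasts. Gpnmb encodes a glycoprotein of lysosome-rich macrophages, Spp1 encodes osteopontin, a secreted matrix and cytokine-like protein, and Itgb3 encodes the integrin beta 3 chain, which binds osteopontin as part of the vitronectin receptor.

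All comparisons of a month with tantalum share the same 3 tantalum arrays. All values are log2 levels of a probe set after the authors' robust multi-array average (RMA) normalization, and levels are compared between arrays for the same gene, not between genes. Array medians ran from 6.36 to 6.54 and no array correlated below 0.970 on average with the others. Muscle fibre markers averaged between 12.72 and 13.49 in every array. The 23 control probe sets had medians from 3.85 to 4.35. All 6 genes lay above the control median on every array, as did 88.5% to 94.9% of all probe sets, depending on the array. Gpnmb exceeded the highest control probe set on 18 arrays and Spp1 on 6. Acp5, Atp6v0d2, Trem2 and Itgb3 did so on 0. Atp6v0d2 was dim, and passed 5.45, the level below which the dimmest 30% of probe sets lie, on 4 arrays. Differences were tested with limma on all arrays, with Benjamini-Hochberg adjustment over 22954 probe sets. A difference was called at an adjusted p below 0.05. The model takes 1 spread per gene over all groups. An SE therefore understates the spread of wide groups and overstates that of narrow ones.

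RefSeq promoter sequence was given for 4 of the 6 measured genes, Acp5, Gpnmb, Spp1 and Trem2, and all their windows are printed. A window of Ocstamp, which was not measured, held 0 matches to the motifs below and is not printed. Each window is the 250 bases before an annotated start site on GRCr8, 5′ to 3′ on the gene's own strand. Capitals mark matches, on either strand, to the motifs searched: the MITF and TFE E-box CACGTG (in 5.59% of 33469 promoters of the same length), the MITF M-box TCANGTG (11.5%), the AP-1 site TGANTCA (6.34%), the NFAT core GGAAAA (21.6%), the PU.1 core GAGGAAG (10.2%) and the antioxidant response element core TGACNNNGC (10.1%). An M-box whose N is C also contains the E-box and would count for both.
Acp5, first start site, chr8:28945931-28946180, minus strand: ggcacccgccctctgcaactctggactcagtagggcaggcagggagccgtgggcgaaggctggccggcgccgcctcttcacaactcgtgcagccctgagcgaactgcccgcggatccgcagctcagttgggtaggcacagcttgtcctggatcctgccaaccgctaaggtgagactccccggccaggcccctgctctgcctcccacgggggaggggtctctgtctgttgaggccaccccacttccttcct
Acp5, second start site, chr8:28943930-28944179, minus strand: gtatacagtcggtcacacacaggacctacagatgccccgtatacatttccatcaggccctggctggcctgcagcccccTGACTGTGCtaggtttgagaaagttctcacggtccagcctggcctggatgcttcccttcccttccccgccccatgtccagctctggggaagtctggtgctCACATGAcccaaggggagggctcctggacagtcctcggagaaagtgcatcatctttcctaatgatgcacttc
Gpnmb, chr4:79340878-79341127, plus strand: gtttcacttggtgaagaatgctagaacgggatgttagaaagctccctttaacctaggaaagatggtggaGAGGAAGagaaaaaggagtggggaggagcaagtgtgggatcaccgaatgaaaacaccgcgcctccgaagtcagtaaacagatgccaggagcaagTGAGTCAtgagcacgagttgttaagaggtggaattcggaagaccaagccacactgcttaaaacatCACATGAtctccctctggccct
Spp1, chr14:5619805-5620054, minus strand: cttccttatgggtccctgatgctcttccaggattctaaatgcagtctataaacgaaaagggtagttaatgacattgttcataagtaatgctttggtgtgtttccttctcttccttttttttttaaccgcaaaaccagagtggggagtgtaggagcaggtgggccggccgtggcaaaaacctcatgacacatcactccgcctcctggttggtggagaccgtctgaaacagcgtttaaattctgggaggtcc
Trem2, chr9:20151780-20152029, minus strand: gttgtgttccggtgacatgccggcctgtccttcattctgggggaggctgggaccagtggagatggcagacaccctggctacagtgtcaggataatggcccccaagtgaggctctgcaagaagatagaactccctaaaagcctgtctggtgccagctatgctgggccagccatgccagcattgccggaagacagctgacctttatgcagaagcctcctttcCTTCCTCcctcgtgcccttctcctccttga
The Gpnmb window held 3 matches, to the PU.1 core at -181, the AP-1 site at -87 and the M-box, on the reverse strand, at -22, counted in bases from the start site. The second Acp5 window held the antioxidant response element core at -172 and a reverse M-box at -72, and the Trem2 window held a reverse PU.1 core at -30. The first Acp5 window and the Spp1 window held none of these letters. A match is a description of the sequence and says nothing of binding.

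Acp5 was the gene whose difference from tantalum passed the test at 3 months, in muscle with cobalt and with nickel. The 3 cobalt arrays read 7.13, 7.51 and 7.35, the 3 nickel arrays 6.85, 7.19 and 6.53, and the 3 tantalum arrays 6.23, 6.50 and 5.96. Every cobalt array and every nickel array therefore lay above the highest tantalum array, a separation that 11.1% of probe sets showed with cobalt and 9.75% with nickel. The cobalt mean exceeded that of tantalum by 1.10 (SE 0.19, n = 3 and 3, limma adjusted p = 9.24e-06), and the nickel mean by 0.63 (SE 0.19, adjusted p = 0.0468). In these comparisons 4.87% of all probe sets were called higher with cobalt and 2.82% with nickel, and over all 31 comparisons 0.443% were called in either direction, so 1 gene of 6 in either metal is a small count read against its background. In whole-muscle pools such as these, more cells of a type and more RNA per cell cannot be told apart.

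The other metals did not separate from tantalum in Acp5 at 3 months. DU arrays read 6.55, 6.49 and 6.09, iron 6.24, 5.74 and 6.37, tungsten 6.33, 5.92 and 6.42, copper 6.37, 5.97 and 6.19, aluminum 6.10, 6.28 and 6.18, and lead 6.23, 6.07 and 5.94. Each of these groups overlapped the tantalum arrays. At 1 month nickel (6.26, 6.99, 6.51) and copper (6.72, 6.07, 6.78) had the highest Acp5 arrays, and both overlapped tantalum, while all 3 aluminum arrays (5.73, 5.83, 6.00) lay below it, a separation that 7.71% of probe sets showed. None of these was called.

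The nickel call ended when any of 4 of the 6 arrays behind it was left out, and the cobalt call held in all 6 such fits. Without the first, the second or the third tantalum array of 3 months the cobalt difference was 1.10, 1.24 and 0.97, each still called, the largest adjusted p being 0.000907. The nickel difference was 0.49 without the third tantalum array (adjusted p = 0.326) and 0.63 without the first (adjusted p = 0.122), and neither was called. It was 0.63 without the first nickel array (adjusted p = 0.145) and 0.46 without the second (adjusted p = 0.398), again not called. Cobalt exceeded nickel directly by 0.47 (95% interval 0.09 to 0.86), which did not pass the test (adjusted p = 0.306), with 2.2% of probe sets called in that contrast. Of the 34 gaps between neighbours in the order of the 35 Acp5 group means, 1 was larger than the bigger SD of its neighbours, the gap from cobalt at 3 months (7.33 ± 0.19, SD, n = 3) down to nickel at 3 months (6.86 ± 0.33). Nickel at 1 month (6.59 ± 0.37) and copper at 1 month (6.52 ± 0.39) came next, and lead at 12 months was lowest (5.57 ± 0.30). The Acp5 means thus spanned 1.76, more than those of 98.0% of probe sets.

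**Figure D1:**
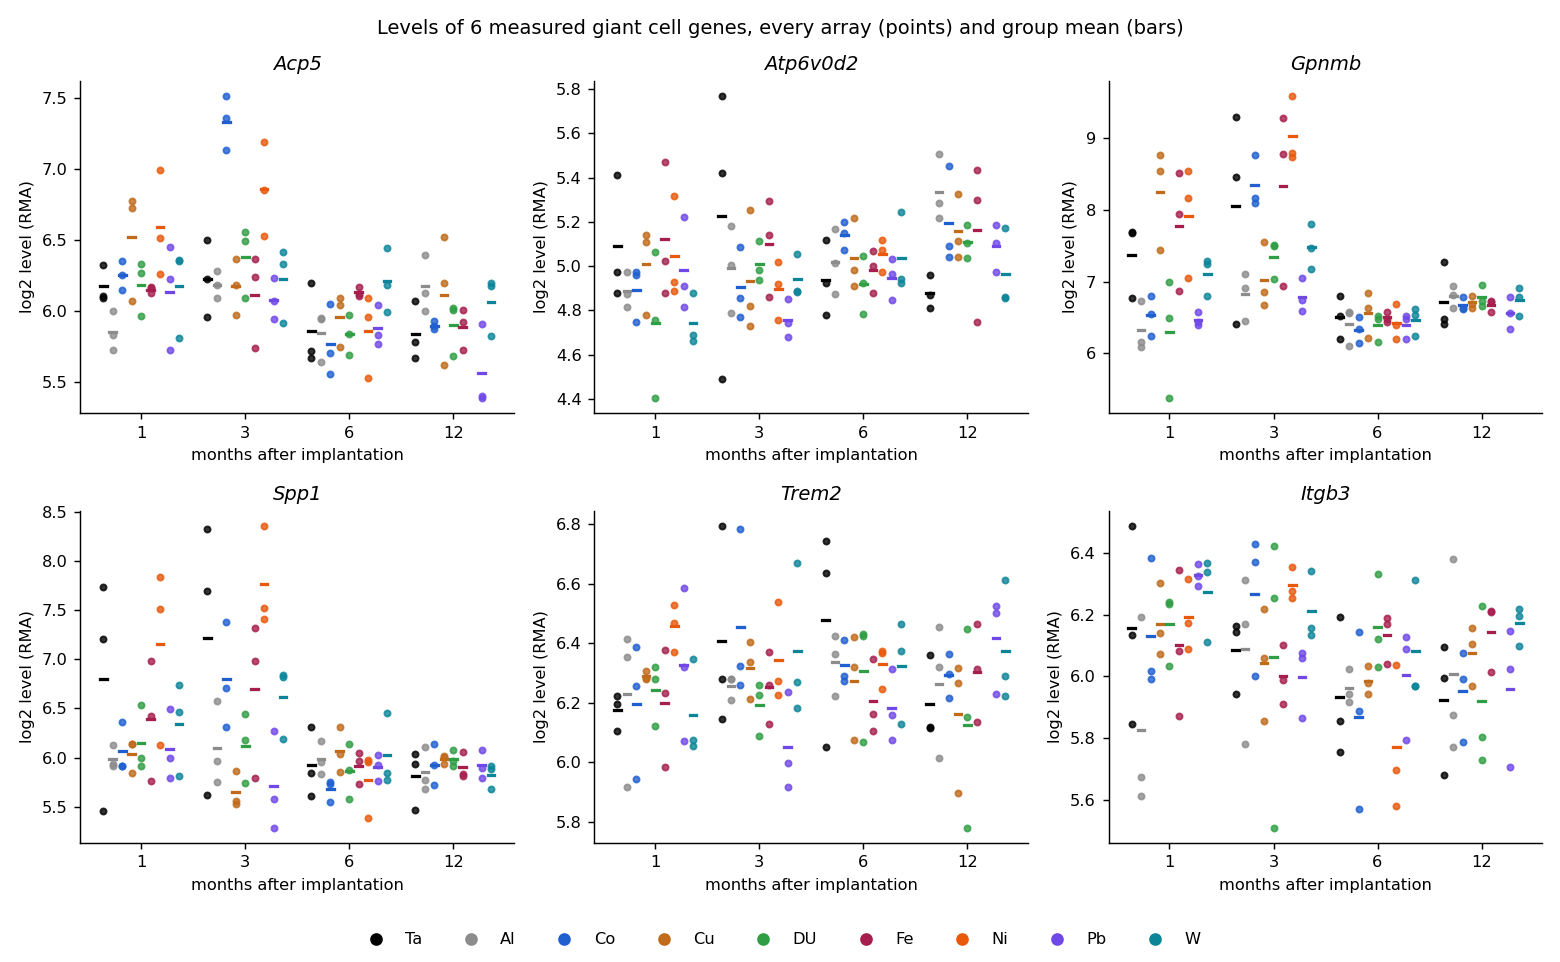
Log2 RMA level of the 6 measured genes on every array (points), with the mean of each metal-by-month group as a bar, against months after implantation. Acp5 with cobalt at 3 months reaches a mean of 7.33, and the Gpnmb and Spp1 panels spread widely at 1 and 3 months and narrow at 6 and 12 months.

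With cobalt, the Acp5 difference from tantalum was called at 3 months and not at the months on either side of it. Cobalt arrays read 6.35, 6.25 and 6.15 at 1 month, against 6.10, 6.11 and 6.32 with tantalum, and 5.56, 5.71 and 6.05 at 6 months, against 5.67, 5.72 and 6.20. The arrays of the 2 metals thus overlapped at both times. The difference rose by 1.03 from 1 to 3 months (SE 0.27, adjusted p = 0.0114, with 3.66% of probe sets called) and fell by 1.20 from 3 to 6 months (SE 0.27, adjusted p = 0.00168, with 3.95% called). A moderated F test over all 4 months gave 8.21 (adjusted p = 0.00335), a test that 4.18% of probe sets passed. Without the third tantalum array of 3 months the first step was 0.89 (adjusted p = 0.0748) and the F was 5.43 (adjusted p = 0.0548), so both calls ended, while the second step, -1.06, was still called (adjusted p = 0.0156). Without the third tantalum array of 1 month the first step was 0.96 (adjusted p = 0.0501) and was also not called. For nickel the step from 3 to 6 months was -0.63 and did not pass (adjusted p = 0.342).

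Gpnmb varied more between groups than almost any probe set. Its 35 group means spanned 2.74 log2 units, from 6.29 with DU at 1 month to 9.03 with nickel at 3 months, a range larger than that of 99.5% of probe sets, whose median range was 0.60. At 3 months nickel arrays read 8.79, 9.58 and 8.73, cobalt 8.09, 8.16 and 8.77, iron 9.27, 6.94 and 8.78, and tantalum 8.45, 9.28 and 6.41. Lead (6.59, 6.74, 7.05), aluminum (6.90, 6.45, 7.11) and copper (7.55, 6.86, 6.67) were the lowest, with DU (7.51, 7.50, 7.04) and tungsten (7.47, 7.18, 7.80) between. Nickel and cobalt were high on all 3 of their arrays, whereas iron and tantalum each had 2 high arrays and 1 low array, so that the tantalum SD was 1.48.

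No Gpnmb difference from tantalum passed the test in 31 comparisons, and 9 had an unadjusted p below 0.05. At 3 months the values ran from -1.26 with lead (SE 0.39, adjusted p = 0.644) to 0.98 with nickel (SE 0.39, adjusted p = 0.183). The SD pooled over all groups was 0.49 for Gpnmb, against 1.48 in tantalum at 3 months, so these SEs are too small for that group. At 1 month copper was the highest group, with arrays at 8.77, 7.43 and 8.54, against 7.69, 6.77 and 7.67 with tantalum, a difference of 0.87 (adjusted p = 0.554). On the same arrays the macrophage markers averaged 7.92, 7.27 and 7.75 with copper and 7.01, 6.92 and 7.73 with tantalum, and their part in this difference was not tested. DU (mean 6.29), aluminum (6.73, 6.16, 6.08), lead (6.40, 6.57, 6.43) and cobalt (6.25, 6.55, 6.80) were lowest at 1 month. In lead and aluminum every array lay below every tantalum array, as in 10.8% and 7.71% of probe sets. By 6 and 12 months the group means were within 6.32 to 6.57 and 6.56 to 6.79, and in every metal the arrays overlapped those of tantalum.

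Spp1 was highest with nickel at 3 months. Nickel arrays read 7.41, 8.36 and 7.52, tantalum 7.69, 8.32 and 5.62, iron 7.31, 5.80 and 6.99, cobalt 6.31, 6.71 and 7.37, and tungsten 6.84, 6.19 and 6.82. Copper (5.87, 5.56, 5.53) and lead (5.59, 5.29, 6.27) were lowest. The same tantalum and iron arrays that were low in Gpnmb were low in Spp1. Against tantalum, copper differed by -1.56 (SE 0.37, adjusted p = 0.0802), lead by -1.50 (adjusted p = 0.297) and nickel by 0.55 (adjusted p = 0.592). None of the 31 Spp1 comparisons passed, and 6 had an unadjusted p below 0.05. At 1 month tantalum itself was split, at 7.21, 5.46 and 7.73, while nickel read 6.13, 7.84 and 7.51. None of the 34 gaps between neighbouring Spp1 group means exceeded the bigger SD, and the 35 means ran from 5.65 with copper to 7.76 with nickel, both at 3 months, a range larger than that of 98.8% of probe sets.

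**Figure D2:**
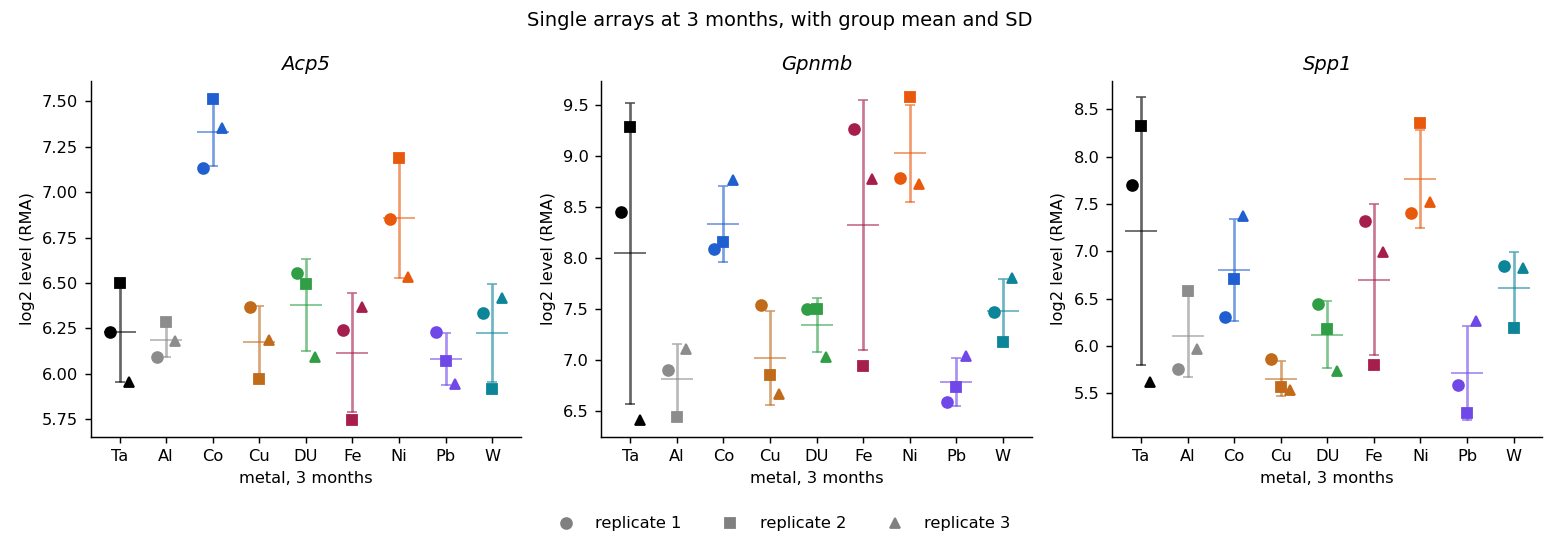
Log2 RMA level of Acp5, Gpnmb and Spp1 on each 3-month array, by metal; the marker shape gives the replicate, and lines give the group mean and SD (n = 3). The third tantalum array lies at 6.41 for Gpnmb and 5.62 for Spp1, far below the other tantalum arrays, while the cobalt arrays of Acp5 lie above all tantalum arrays.

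The calls of Gpnmb and Spp1 against the control at 3 months depended on which tantalum array was left out. With the third tantalum array left out, the count of calls over all 31 comparisons went from 2 to 12. Gpnmb was then called lower with aluminum (-2.05, adjusted p = 0.00164), copper (-1.84, adjusted p = 0.0106) and lead (-2.08, adjusted p = 0.00146). Spp1 was called lower with aluminum (-1.91, adjusted p = 0.0028), cobalt (-1.21, adjusted p = 0.0375), copper (-2.36, adjusted p = 4.25e-05), DU (-1.89, adjusted p = 0.0117) and lead (-2.30, adjusted p = 0.000127). Atp6v0d2, dim throughout, was called lower with cobalt (-0.69, adjusted p = 0.00364), nickel (-0.70, adjusted p = 0.00815) and lead (-0.83, adjusted p = 0.00846). Probe sets called lower in this setting were 0.122% with aluminum, 0.301% with cobalt, 0.0653% with copper, 0.0305% with DU, 0.166% with nickel and 0.0741% with lead. Acp5 with cobalt was the remaining call of the 12, where 3.99% of probe sets were called higher. Without the second tantalum array instead, Gpnmb was called higher with nickel (1.60, adjusted p = 0.0114). Mean levels of 12 macrophage markers on the tantalum arrays were 7.06, 7.41 and 7.13, the first array being the lowest. Their part in the Gpnmb and Spp1 levels of these arrays was not tested.

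**Figure D3:**
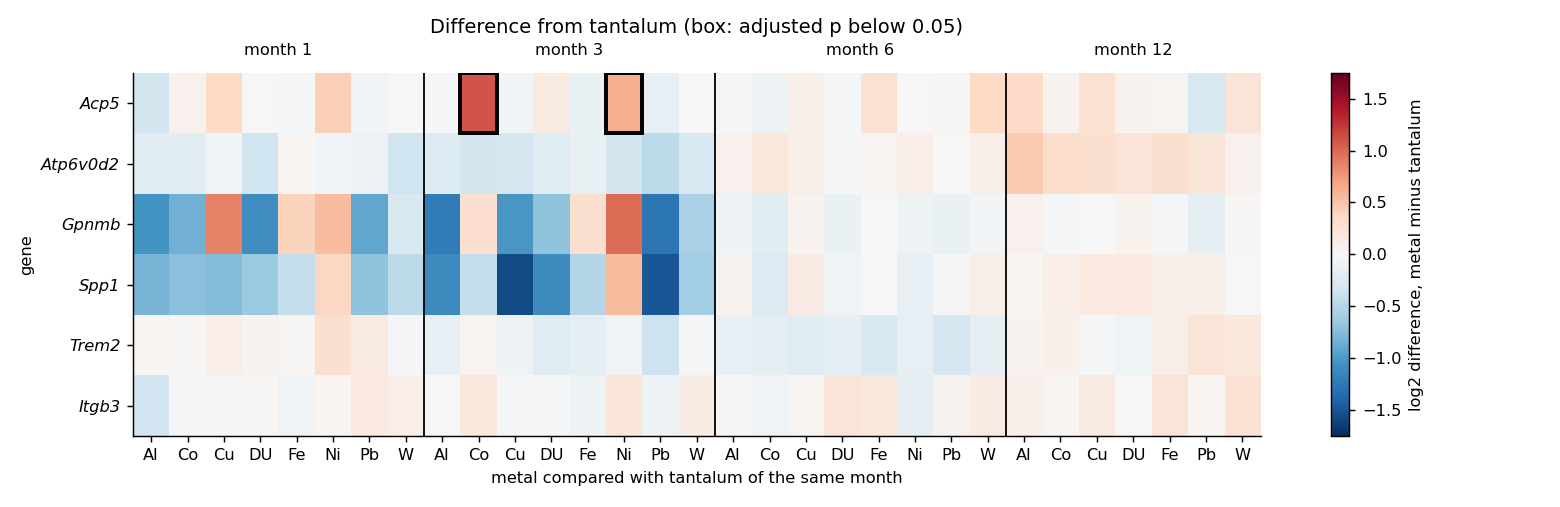
Log2 difference of each metal from tantalum of the same month (columns) for the 6 genes (rows); red is higher, blue is lower, and a black box marks an adjusted p below 0.05. The 2 boxes are Acp5 with cobalt (1.10) and nickel (0.63) at 3 months; Gpnmb and Spp1 have deep colours at 1 and 3 months without a box.

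Whether the metals of a month differed among themselves was asked with an F test over all metals, tantalum included, which was added after the data had been seen. At 3 months Acp5 (F = 9.60, adjusted p = 1.73e-07), Gpnmb (F = 8.25, adjusted p = 1.92e-06) and Spp1 (F = 6.95, adjusted p = 2.27e-05) passed, as did 8.87% of probe sets. At 1 month Gpnmb passed (F = 7.51, adjusted p = 6.78e-05), with 4.77% of probe sets. At 6 and 12 months 0 of the 6 genes passed with limma, 0 had an unadjusted p below 0.05, and 0% of probe sets passed. This model leaves out the replicate number, although same-numbered arrays deviated together in most comparisons of these 2 months. Without the third tantalum array of 3 months the F values for Gpnmb and Spp1 were higher, at 12.30 and 11.26.

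When each metal was instead set against the mean of the other metals, with tantalum left out, 5 comparisons passed. Nickel at 3 months was higher in Gpnmb by 1.58 (SE 0.29, adjusted p = 5.91e-05), in Spp1 by 1.52 (SE 0.28, adjusted p = 6.98e-05) and in Acp5 by 0.50 (SE 0.15, adjusted p = 0.0255), with 4.32% of probe sets called. Cobalt at 3 months was higher in Acp5 by 1.04 (SE 0.15, adjusted p = 1.91e-08), with 8.26% called. Copper at 1 month was higher in Gpnmb by 1.33 (SE 0.29, adjusted p = 0.00515), with 0.806% called. Nickel muscle at 3 months thus had the highest mean of the 35 groups for both Gpnmb and Spp1, and cobalt muscle the highest for Acp5.

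Within groups, arrays high in Gpnmb were also high in Spp1. The deviations of the 27 arrays of 3 months from their own group means had a Pearson r of 0.88 and a Spearman rho of 0.766 (within-group permutation tests, adjusted p = 0.0246 and 0.0399 over 60 gene pairs and months), and r was 0.783 without the 2 arrays farthest from the median. At 1 month r was 0.66 and rho 0.633 (permutation adjusted p = 0.0366 and 0.048; r = 0.662 without 2 arrays). At 6 and 12 months the r values were 0.471 and 0.294, and neither passed (permutation adjusted p = 0.347 and 0.876). Acp5 deviated with Gpnmb (r = 0.685, rho = 0.697, permutation adjusted p = 0.0357 and 0.0444; r = 0.622 without 2 arrays) and with Spp1 (r = 0.693, rho = 0.712, permutation adjusted p = 0.0345 and 0.0399; r = 0.662) at 3 months. Acp5 deviated with Atp6v0d2 at 1 month (r = 0.598, rho = 0.609, permutation adjusted p = 0.0357 and 0.048; r = 0.584). Both genes of a pair were read on the same arrays. In each pair the 2 arrays left out were those farthest from the median in the first-named gene alone. Deviations of the other arrays were still taken from group means that included the arrays left out. These r values therefore cannot show what holds without such arrays.

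**Figure D4:**
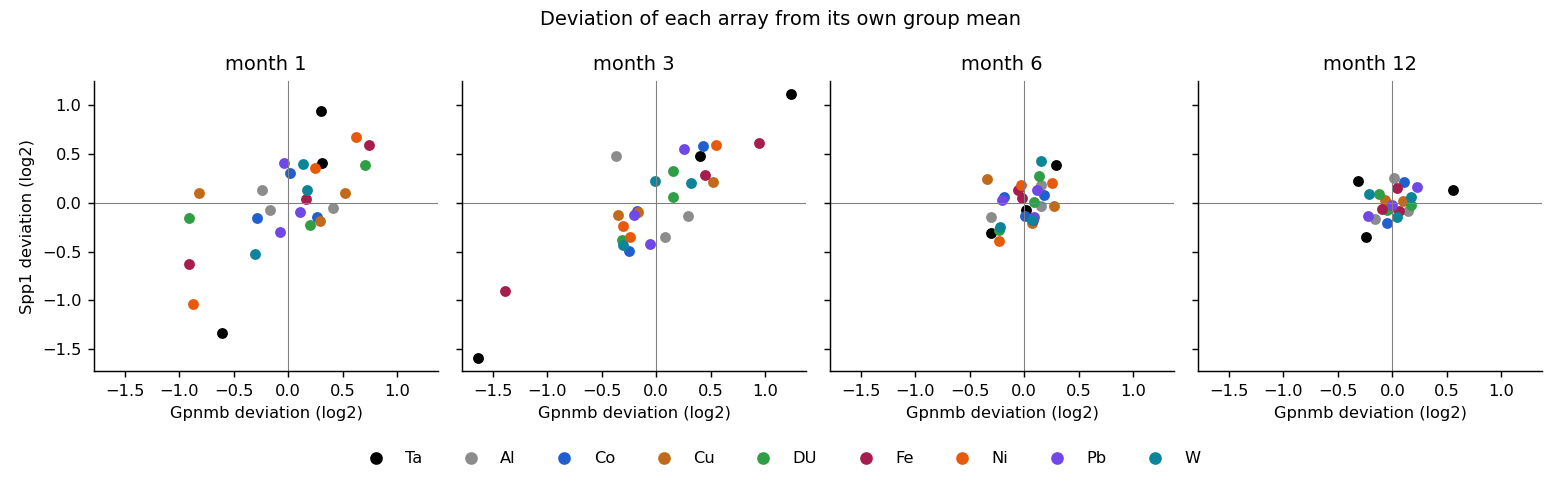
Deviation of Gpnmb (x axis, log2) and Spp1 (y axis, log2) from the group mean for each array, by month; the colour gives the metal. At 3 months the points lie along a diagonal (r = 0.88), with tantalum and iron arrays at both ends, and at 6 and 12 months they gather near 0.

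Averaged over tantalum and the 7 metals with all 4 months, a comparison added after the data had been seen, Gpnmb, Spp1 and Acp5 fell between 3 and 6 months. From 3 to 6 months Gpnmb fell by 1.08 (SE 0.14, adjusted p = 9.19e-10), Spp1 fell by 0.44 (SE 0.13, adjusted p = 0.00504) and Acp5 fell by 0.40 (SE 0.07, adjusted p = 1.5e-06). In this step 20.7% of probe sets were called lower, so 3 of 6 genes is to be read against a large background. Each month was a separate set of rats, so time after implantation cannot be told apart from the age of the animals. Nor can it be told apart from a difference in array processing between months, if there was one. Gpnmb was lower at 6 months in 9 of 9 metals, Acp5 in 8 of 9 and Spp1 in 7 of 9. Without tantalum in the mean the Spp1 step was -0.32 and was not called (adjusted p = 0.0641). From 1 to 3 months Gpnmb rose by 0.51 (SE 0.14, adjusted p = 0.00442, with 9.81% of probe sets called higher), a call lost without cobalt (0.32, adjusted p = 0.114). From 6 to 12 months limma called 0 of the 6 genes, against 4.36% of probe sets, with 0 at an unadjusted p below 0.05. Gpnmb was still higher at 12 months in 8 of 8 metals, by 0.14 to 0.39. Its mean rise of 0.26 (limma adjusted p = 0.322) was called when only the arrays compared were fitted.

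In tantalum muscle alone, limma called none of the 6 genes between 1 month and a later month, with 0.222%, 4.76% and 7.85% of probe sets called at 3, 6 and 12 months. The largest change was that of Spp1 at 12 months, -0.99 (SE 0.37, adjusted p = 0.0932). The tantalum arrays of 1 month were split, and without the second of these, at 5.46, Spp1 was called lower at 6 months (-1.55, adjusted p = 0.0134) and at 12 months (-1.65, adjusted p = 0.00362). At an unadjusted p below 0.05 there were Spp1 and Gpnmb at 6 months and Spp1 at 12 months. Here too, time after implantation and the age of the animals cannot be told apart. Averaged over the months of a metal, 0 of 6 genes were called for any of the 8 metals, where between 0% and 2.83% of probe sets were. The closest was Acp5 with nickel, higher by 0.35 (SE 0.11, adjusted p = 0.0721).

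The fusion and surface genes Atp6v0d2, Trem2 and Itgb3 varied little. Group means spanned 0.59 for Atp6v0d2, 0.56 for Itgb3 and 0.43 for Trem2, near or under the median range of all probe sets, 0.60. None was called in 31 comparisons with tantalum, and 4, 1 and 1 of these had an unadjusted p below 0.05 for Atp6v0d2, Trem2 and Itgb3. For Trem2 with cobalt at 3 months the arrays read 6.32, 6.78 and 6.26, against 6.14, 6.80 and 6.28 with tantalum, and the groups overlapped. For Itgb3 the cobalt arrays read 6.00, 6.43 and 6.37 and the tantalum arrays 6.16, 6.15 and 5.94, again with overlap. With nickel, Itgb3 read 6.35, 6.25 and 6.28, above all tantalum arrays, as 9.75% of probe sets did, a difference of 0.21 that was not called. Atp6v0d2 read 4.86, 4.77 and 5.09 with cobalt and 5.42, 5.77 and 4.49 with tantalum, the widest group for this gene. The third tantalum array was thus the lowest of its group for Acp5, Atp6v0d2, Gpnmb, Spp1 and Itgb3, but not for Trem2.

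Genes around these members in the same pathways were taken from lists made with earlier results of these data known, and are counted at 3 months, where Acp5 was called. Of 20 regulators of macrophage and osteoclast differentiation, 4 were higher with cobalt and 3 with nickel, where 4.87% and 2.82% of all probe sets were called higher, shares against which the counts of every list that follows are to be read. They were led by Tfec, a transcription factor of the MITF family (1.95 with cobalt, adjusted p = 1.49e-10; 1.27 with nickel, adjusted p = 6.79e-05). Csf1r, the receptor for the growth factor that macrophages need, was higher in both (1.14 and 0.89, adjusted p = 0.000481 and 0.0194), as was Il4r, a receptor chain for interleukin-4, a cytokine that drives giant cell formation (0.78 and 0.54, adjusted p = 2.35e-05 and 0.0131). Stat6, which signals for that receptor, was called with cobalt (0.75, adjusted p = 9.51e-07) and was 0.34 with nickel. The median of the list was 0.17 with cobalt and 0.05 with nickel, beside -0.05 and -0.02 over all probe sets.

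Fusion receptors and their adaptors were higher in 6 of 14 with each metal. The nickel counts rested more on single arrays: over all lists, 31 genes were called higher with nickel, 16 without its first array and 20 without its second, whereas with cobalt there were 39, and 32 to 38 with an array left out. They included the kinase Syk (1.94 with cobalt, adjusted p = 4.87e-12; 1.02 with nickel, adjusted p = 0.000577), the Fc receptor gamma chain Fcer1g (1.91, adjusted p = 2.12e-09; 1.60, adjusted p = 1.78e-06), the hyaluronan receptor Cd44 (1.14, adjusted p = 4.07e-06; 0.89, adjusted p = 0.00134) and Tyrobp, the adaptor of TREM2 (1.09, adjusted p = 5.62e-05; 0.85, adjusted p = 0.00656). Tyrobp thus rose in both metals, while Trem2, its receptor, differed by 0.05 with cobalt and -0.06 with nickel, and neither Trem2 difference passed the test. The list median was 0.32 with cobalt and 0.38 with nickel.

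The proton pump and resorption genes, the machinery by which osteoclasts acidify and digest, were called in few cases. With cobalt limma called 0 of 22, and the single gene with an unadjusted p below 0.05 was Atp6ap2 (0.38). With nickel 1 of 22 was higher, a share close to that of all probe sets: Mmp14, a membrane-bound collagenase (0.92, adjusted p = 0.00388). The list medians were -0.05 and -0.11. Among lipid-handling macrophage genes 4 of 15 were higher with each metal: Apoe, Ctsb and Abca1 with both, Cd68 with cobalt and Plin2 with nickel. Apoe, a lipid carrier, was higher by 2.10 with cobalt (adjusted p = 2.83e-10) and by 1.54 with nickel (adjusted p = 9.39e-06). Of the 9 measured partners of osteopontin and integrin beta 3, 1 was higher with cobalt, the cytokine gene Tgfb1 (1.21, adjusted p = 3.04e-06), and 1 with nickel, the fibronectin gene Fn1 (1.19, adjusted p = 0.000979). No gene of any list was called lower in either metal.

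Markers of other cells moved in the same samples, and their part in the Acp5 differences was not tested. Macrophage markers were higher in 10 of 12 with cobalt (median 1.06) and 10 of 12 with nickel (median 0.87). Laptm5 (2.46) and Ptprc (3.36) led with cobalt, and C1qb (1.68) with nickel. Laptm5 and Ptprc are genes of leukocytes in general, so the list does not read macrophages alone. The mean level of all 12 was 8.49, 8.36 and 8.90 on the cobalt arrays and 8.19, 8.28 and 7.94 on the nickel arrays. On the iron arrays, where Gpnmb was high on 2 of 3, this mean was 6.86 to 6.96, and its part in the Gpnmb levels was not tested. T cell markers were higher in 8 of 8 with cobalt, with means from 6.91 to 7.07 against 5.39 to 5.60 with tantalum, and in 1 of 8 with nickel (Cd3e, 0.69). Dendritic cell markers were higher in 4 of 7 with cobalt and 1 of 7 with nickel, and their mean ran from 6.20 to 6.58 with cobalt, 5.77 to 5.85 with nickel and 5.36 to 5.67 with tantalum. Bone cell markers were called in 1 of 8 with cobalt, Runx2, a transcription factor of bone-forming cells (1.59), and in 2 of 8 with nickel, Runx2 (1.21) and the collagen gene Col1a1 (0.92). Their mean ran from 6.52 to 6.62 with cobalt, 6.51 to 6.71 with nickel and 6.40 to 6.45 with tantalum. Platelet markers, relevant because platelets carry integrin beta 3, were called in 1 of 6 with cobalt (Pf4, 0.65) and 0 of 6 with nickel, with means of 5.93 to 5.98, 5.84 to 5.94 and, with tantalum, 5.62 to 5.99.

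**Figure D5:**
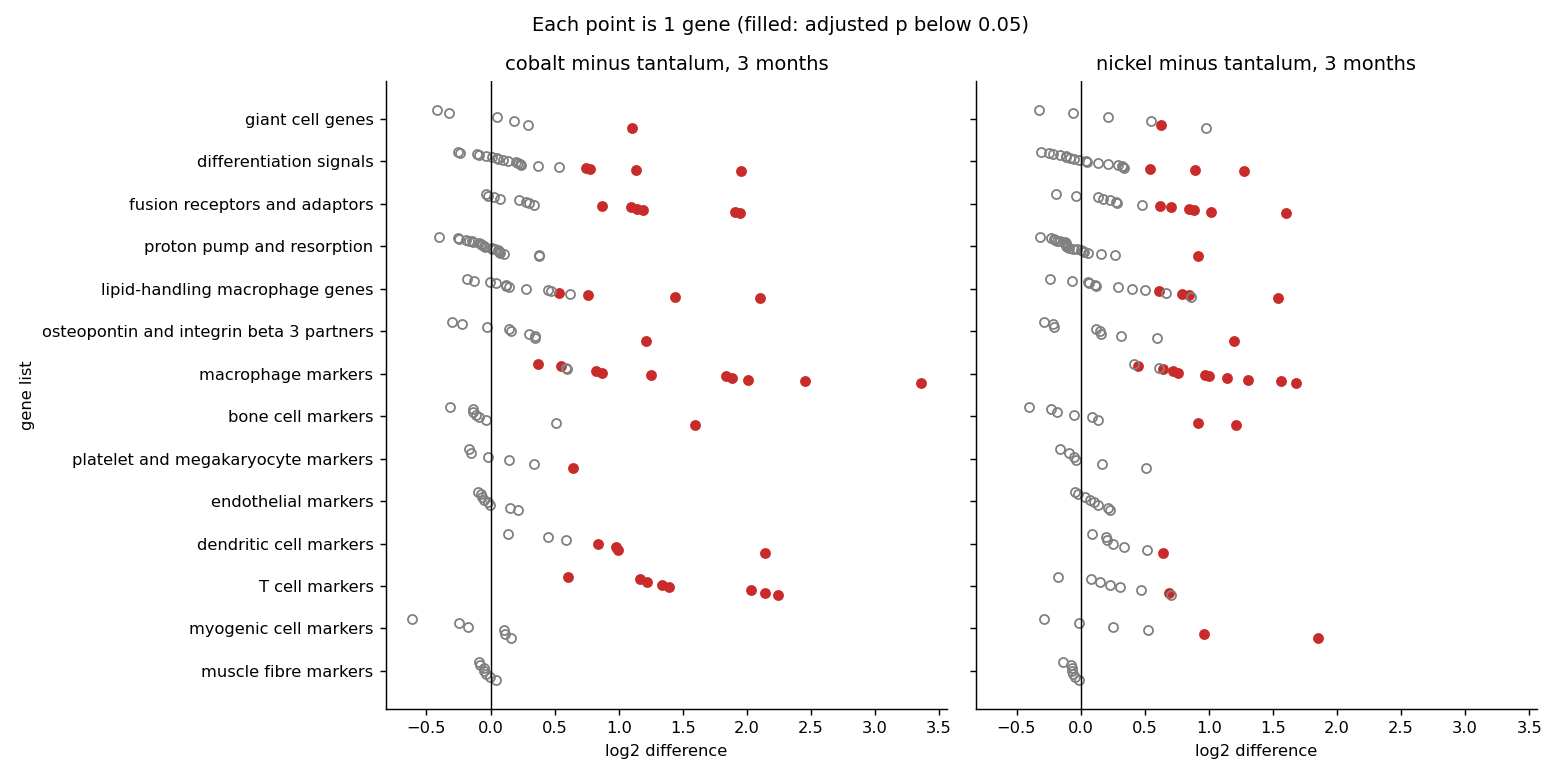
Log2 difference from tantalum at 3 months for every measured gene of the 6-gene set and of 13 further lists, with cobalt (left) and nickel (right); filled red points have an adjusted p below 0.05. Macrophage markers lie to the right of 0 in both metals and T cell markers mainly with cobalt. The proton pump list centres near 0, with Mmp14 as a filled point with nickel.

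With nickel, limma called 0 endothelial (0 of 8) and 0 muscle fibre markers (0 of 7), as with cobalt, while 2 of 6 myogenic markers were higher, Myh3, the embryonic myosin of regenerating fibres (1.85, adjusted p = 4.75e-10), and Myf5 (0.96, adjusted p = 0.0106). No myogenic marker was called with cobalt, where Myod1 was -0.62 (adjusted p = 0.0506).

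As a description over the 35 group means, with no test, the genes whose pattern was most like each member's were sought among all annotated symbols. For Acp5 they were RT1-Db1 (r = 0.913) and Cd74 (0.911), genes of the antigen presentation pathway, and Laptm5 (0.912), a lysosomal gene of leukocytes. For Gpnmb they were Lilrb4 (0.961), Lgals3 (0.903) and Lyz2 (0.891), genes of myeloid cells, and for Spp1 Il1rn (0.872), Ccl3 (0.860) and Timp1 (0.855). The r between Gpnmb and Spp1 themselves was 0.819, that between Acp5 and Gpnmb 0.747 and that between Acp5 and Spp1 0.653. For the members that varied little the best r values were lower: 0.713 for Itgb3 (Bcat1), 0.655 for Trem2 (Tdp1) and 0.631 for Atp6v0d2 (Pclo). The 10 genes most like the mean of the members were Il1rn, Cybb, Itgb2, Slc11a1, Lilrb4, Ctsb, Ccl3, Cd68, Rgs1 and Prkcd, with r from 0.807 to 0.855. All these values share the same arrays.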

How the data were processed

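Gene expression was measured in rat gastrocnemius on Clariom S Rat arrays, 3 arrays for each of 35 metal-by-month groups. The values are log2 levels per probe set, made by the authors with RMA in the oligo package under R 4.0.1, per the submitters' processing notes. Whether 1 RMA run covered all arrays, and the genome build of the annotation, are not given in the sources used here. Of 22977 probe sets, 23 controls were set aside and 22954 were tested, of which 14855 carried 1 gene symbol. The number of arrays, not a read depth, limits the precision.

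The deposited values of all arrays entered a single limma 3.58.1 model (R 4.3.3) with a mean for each group, with 70 residual degrees of freedom and a prior of 7.25. P-values were two-sided and adjusted by Benjamini-Hochberg over the probe sets of each comparison. The code was tested on simulated data. Permutations, sequence matching and plots used Python 3.11.15, numpy 2.4.6, scipy 1.17.1 and matplotlib 3.10.9, with 100000 permutations of replicates within groups. All comparisons of a month share the same 3 tantalum arrays. No arrays were duplicates.

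The genes and lists were chosen with earlier results of these data known. All members are named. In comparisons with a member called, up to 4 genes of a list with the smallest adjusted p are named, and any gene needed for a count. For likeness, 3 genes per member and 10 for the mean of the members are named. A gene with several probe sets was read from its brightest.

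Replicate numbers came from the labels. Same-numbered arrays deviated together, by the rule of every correlation over 0.1, in 13 of 31 comparisons (r from -0.11 to 0.32). The alternatives were a second quantile normalization, a filter on the dimmest 30% of probe sets, a trended prior, array weights and a replicate block. Others were adjustment over all comparisons of a kind, only the arrays compared, and the mean of the other metals as reference. Each cobalt, nickel and tantalum array was also left out in turn, but no array of another metal was.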

Additional observations from a re-analysis of the deposited data

Results flagged for a closer look

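The difference of Acp5 between cobalt and tantalum muscle changed with the month, and the change itself passed the test with all arrays. From 1 to 3 months the difference rose by 1.03 on the log2 scale (limma adjusted p = 0.0114), and 3 of 3 cobalt arrays at 3 months lay above 3 of 3 tantalum arrays. From 3 to 6 months it fell by 1.20 (-1.20, adjusted p = 0.00168), and the arrays of both metals overlapped again at 6 months. The F test over the 4 months gave 8.21 (adjusted p = 0.00335). Without the third tantalum array of 3 months the first step (0.89, adjusted p = 0.0748) and the F (5.43, adjusted p = 0.0548) were no longer called. The first step was also lost without the third tantalum array of 1 month (adjusted p = 0.0501) and with adjustment over all comparisons together (adjusted p = 0.0862). The macrophage marker list, which includes the leukocyte genes Laptm5 and Ptprc, averaged 8.36 to 8.90 on the cobalt arrays of 3 months. On the tantalum arrays it averaged 7.06 to 7.41, and its part in the change was not tested. With 3 arrays a group, no array was tested as an outlier.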

How the results depend on the processing

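Of the recomputed values, 550 kept their direction and side of the threshold or stayed within 1.5 times, 46 counts moved by more, 13 calls of single genes were lost and 0 reversed. Over all 31 comparisons with tantalum the count of 2 became 1 with a second quantile normalization, 4 with array weights, 1 with only the arrays compared and 5 with the other metals as reference. For nickel at 3 months the count of 1 became 0, 2, 0 and 3 in the same order, and 0 with adjustment over all comparisons together. Array weights also gave 1 call for the metal means (Acp5 with nickel, 0.38, adjusted p = 0.035) and 2 among metals at 1 month. Adjustment over all comparisons left 1 step between months, and 0 for cobalt from 1 to 3 months (adjusted p = 0.0862). With only the arrays compared, 1 gene was called from 6 to 12 months (Gpnmb, 0.26, adjusted p = 0.0123). From 1 to 3 months over the metals the count of 1 was 0 without cobalt and 2 without copper.

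With the replicate number as a block the Acp5 differences were 1.10 with cobalt (adjusted p = 1.39e-05) and 0.63 with nickel (adjusted p = 0.0385). The block added 1 list gene called lower with cobalt (Myod1, -0.62, adjusted p = 0.0259) and 1 with nickel (Nfatc1, -0.31, adjusted p = 0.00693), and changed no other call on the members. Without the dimmest 30% of probe sets, which drops Atp6v0d2, 1 list gene was lower with cobalt (Myod1, adjusted p = 0.0434).

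Each of the 33 cobalt, nickel and tantalum arrays was left out in turn, and arrays of the other metals were not. This gave 1 to 12 calls over the comparisons with tantalum, 1 to 3 for cobalt and 0 to 2 for nickel at 3 months. It gave 0 to 3 for the metal means, 1 to 5 for the steps between months, 0 to 1 and 1 to 2 for the cobalt steps from 1 to 3 and from 3 to 6 months, and 1 to 4 for the F test over months. It gave 0 to 2 for tantalum over time and 1 to 2 among metals at 1 month. List genes called higher numbered 32 to 38 with cobalt and 16 to 34 with nickel, against 39 and 31 with all arrays. The Acp5 difference ranged from 0.97 to 1.24 with cobalt and from 0.46 to 0.79 with nickel (adjusted p from 0.015 to 0.398). For the steps with cobalt it ranged from 0.89 to 1.16 and from -1.34 to -1.03, and for the F over months from 5.43 to 8.99. The cause of these shifts was not tested. Dim signal limits Atp6v0d2.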

Other observations

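From 3 to 6 months, averaged over tantalum and the 7 metals with all 4 months, many genes of the same lists were called lower. Of 12 macrophage markers 8 were lower and 0 higher, led by the lysozyme gene Lyz2 (-1.46) and Laptm5 (-0.95). Of 14 fusion receptors and adaptors 10 were lower and 1 higher, and of 20 differentiation regulators 11 were lower and 0 higher. Among lipid-handling genes 9 of 15 were lower, including the galectin gene Lgals3 (-1.14), Cd68 (-0.85) and Apoe (-0.74), and 2 were higher, Cst7 (0.65, adjusted p = 1.03e-07) and Plin2 (0.14, adjusted p = 0.0365). The proton pump and resorption list was mixed, with 9 of 22 lower and 5 higher, the latter including the pump subunits Atp6v1e1 (0.38) and Atp6v1d (0.32). Endothelial markers were lower in 7 of 8 and higher in 0, led by Eng (-0.61). In this step 20.7% of all probe sets were called lower and 39.6% in either direction. Time after implantation, the age of the animals and any difference in array processing between months cannot be told apart in it.

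Atp6v0d2 at 12 months lay above every tantalum array on all 3 arrays of aluminum, cobalt, copper, DU and lead. The aluminum arrays read 5.51, 5.28 and 5.22 and the tantalum arrays 4.81, 4.96 and 4.87. The difference was 0.46 and did not pass limma's test (adjusted p = 0.421), and all of these comparisons share the same 3 tantalum arrays. Between 5.36% and 7.8% of probe sets showed such a separation with these metals.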
